A study of Mus musculus with 7 samples.

Results

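The endocannabinoid system genes described here were the 9 rows, of 32285 in the deposited gene list, with the symbols Cnr1, Cnrip1, Dagla, Daglb, Mgll, Abhd6, Abhd12, Napepld and Faah. They were chosen by name, each symbol stood in a single row, and none of them was used to cluster nuclei. The data were single-nucleus RNA sequencing counts from an anterior domain (aplCoA) and a posterior domain (pplCoA) of the posterolateral cortical amygdala, a region of olfactory cortex on the ventral surface of the brain, and the study asked how molecular cell types differ along this axis. All tissue came from male C57BL6J mice of 8 weeks, with no transgene and no treatment that set one domain apart. According to the study, all of them were housed singly and kept in sensory deprivation before sacrifice. Each library held microdissected tissue pooled from several animals. There were 7 libraries, 4 of aplCoA and 3 of pplCoA, and the 2 libraries of aplCoA replicate 1 were summed, which left 3 replicates for each domain. Because replicates were pools, an SD or a p-value below measures the spread between pools and not between animals.

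Endocannabinoids are lipids made on demand in neurons and glia that act back across the synapse. The CB1 receptor, product of Cnr1, sits mainly on axon terminals, where its activation lowers transmitter release, and in cortex and cortical amygdala it is best known on the cholecystokinin basket cells, a kind of GABAergic interneuron. Of the principal ligands, 2-arachidonoylglycerol (2-AG) is made by diacylglycerol lipases and broken down by monoacylglycerol lipase and the ABHD hydrolases, while anandamide can be released from its membrane precursor by NAPE-PLD and is broken down by fatty acid amide hydrolase.

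The libraries held between 50812605 and 129624583 UMIs (unique molecular identifiers, which count captured transcripts), and 46376 nuclei of at least 1000 genes were kept, of which 46188 fell into marker-named classes. Libraries shared between 4 and 29 cell barcodes in a pair, at most 0.385% of the smaller library. Levels are given for 9 classes with at least 10 nuclei in every replicate, namely glutamatergic neurons (19870 nuclei), GABAergic neurons (5124), astrocytes (9763), oligodendrocyte precursor cells (OPCs, 3641), newly formed oligodendrocytes (NFOLs, 372), mature oligodendrocytes (MOLs, 1453), microglia (2777), and the meningeal vascular leptomeningeal cells (VLMCs, 1854) and arachnoid barrier cells (ABCs, 1059). Levels are counts per 1000000 UMIs of the class in a replicate (CPM). As a check of the neuronal labels, the summed level of 5 GABAergic markers was 1130 to 1336 CPM over the 6 replicates in GABAergic nuclei and 4.17 to 17.6 in glutamatergic nuclei. That of 5 glutamatergic markers was 995 to 1235 in glutamatergic nuclei and 328 to 414 in GABAergic nuclei. Most of the latter was Camk2a, at 348 CPM pooled over replicates, against 781 CPM in glutamatergic nuclei. Slc17a7 stood at 10.3 CPM in GABAergic and 212 CPM in glutamatergic nuclei. A level compares classes within a gene and not one gene with another, and a lower level in a class can mean fewer nuclei with the transcript or fewer transcripts per nucleus.

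**Figure D1:**
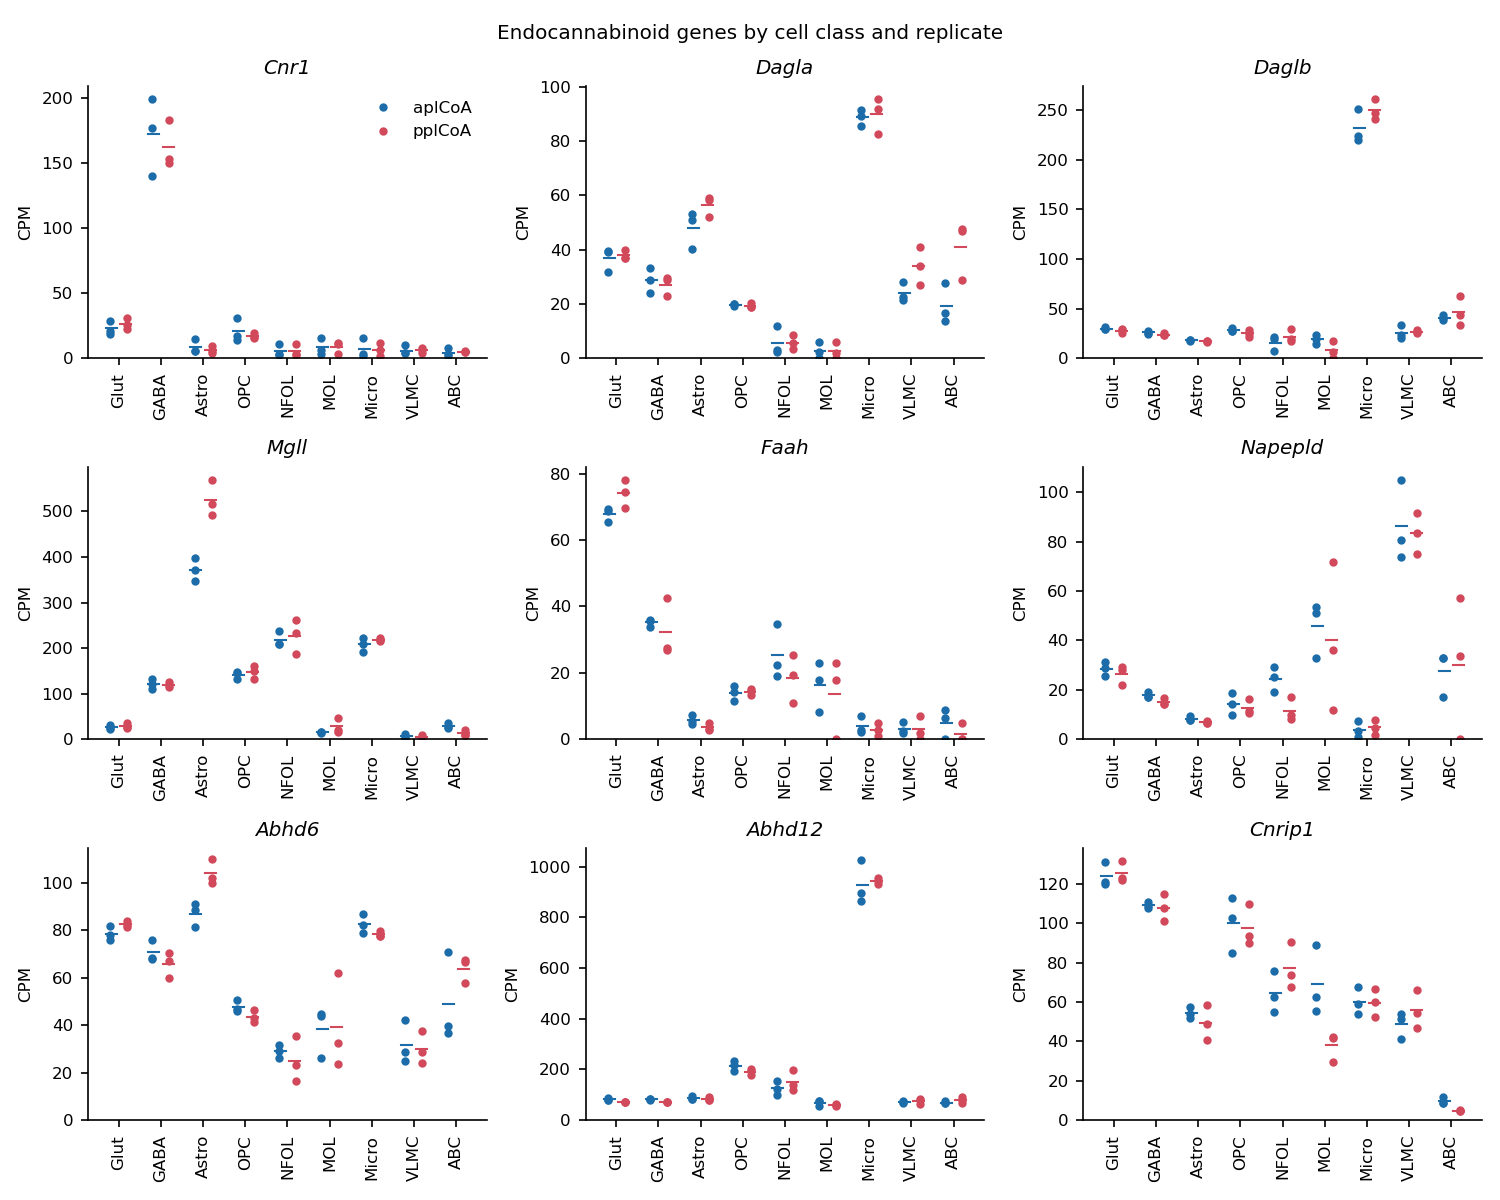
Level of each of the 9 genes (CPM, linear axes from 0, one panel per gene) in 9 classes of nuclei. Dots are the 3 replicates of each domain and bars their mean; Cnr1 stands highest in GABAergic neurons (167 CPM over the 6 replicates), Mgll in astrocytes (449), Abhd12 and Daglb in microglia (936 and 241), Napepld in VLMCs (84.9) and Faah in glutamatergic neurons (71.0).

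Cnr1 (ENSMUSG00000044288; GRCm38 chromosome 4, 33924593 to 33948831, plus strand), which encodes the CB1 receptor, was highest in GABAergic neurons. Its level there was 199, 177 and 140 CPM in aplCoA replicates 1 to 3 and 150, 153 and 183 CPM in pplCoA replicates 1 to 3. In glutamatergic neurons it was 28.9, 21.0 and 18.8 CPM in aplCoA and 22.1, 25.8 and 30.6 CPM in pplCoA. Every replicate was thus several times higher in GABAergic than in glutamatergic neurons, while the domains overlapped within each class. In the fit across all genes, the difference on the log2 scale was 2.62 (SE 0.0698; edgeR quasi-likelihood test with the replicate as a block, adjusted p = 1.17e-08). GABAergic neurons were 11.1% of nuclei in the named classes, with 11.5% of all UMIs in those nuclei, and held 50.6% of the Cnr1 UMIs. Glutamatergic neurons were 43.0% of nuclei with 68.1% of all UMIs, and held 43.8% of the Cnr1 UMIs.

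OPCs came next in the order of Cnr1 levels, at 30.8, 14.1 and 16.9 CPM in aplCoA and 19.4, 15.7 and 16.1 CPM in pplCoA, and they did not differ from glutamatergic neurons in one direction. The other 6 classes lay between 4.59 CPM (ABCs) and 8.48 CPM (MOLs) on average. Droplets also take up RNA that floats free: in barcodes with under 100 UMIs, the Cnr1 level ranged from 40.0 to 112 CPM between libraries (median 66.8 CPM), and for the other 8 genes the median over libraries was between 18.7 CPM (Napepld) and 158 CPM (Abhd12). Several neuronal levels lay under the free RNA of every library: Cnr1 and Mgll in glutamatergic neurons (free RNA of Mgll 57.6 to 105 CPM), Daglb in both neuron classes (free RNA 34.0 to 45.4 CPM) and Abhd12 in both (130 to 172 CPM). So did the Cnr1 levels of OPCs and of the other 6 classes. The part of free RNA in these levels was not tested. When every nucleus was thinned to 2000 UMIs, 22.5% ± 2.90 (SD, n = 6) of GABAergic nuclei held a Cnr1 UMI, against 4.46% ± 1.07 of glutamatergic nuclei, 3.92% ± 1.50 of OPCs and 1.28% ± 1.29 of microglia, a class not expected to carry it. Before thinning the shares were 43.7%, 23.2%, 7.63% and 2.22%, at median depths of 7929.5, 12280, 3950 and 3182 UMIs per nucleus. Shallower nuclei were left out of the thinned shares (25 GABAergic, 65 glutamatergic, 118 OPCs and 385 microglia). The receptor transcript was unevenly spread among GABAergic nuclei: 2.71% held 10 or more UMIs, and the highest nucleus held 61, against a highest of 12 among glutamatergic nuclei.

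Cnrip1 (chromosome 11, 17051586 to 17079371, plus strand) encodes a protein that binds the tail of the CB1 receptor, and its distribution was unlike that of the receptor. Its level in glutamatergic neurons was 121, 120 and 131 CPM in aplCoA and 132, 122 and 123 CPM in pplCoA. In GABAergic neurons it was 109, 108 and 111 CPM in aplCoA and 115, 101 and 108 CPM in pplCoA, and glutamatergic neurons were the higher class in all 6 replicates (log2 difference -0.36 for GABAergic minus glutamatergic, SE 0.0328, edgeR adjusted p = 1.22e-05). At equal depth the order held in 5 of 6 replicates. OPCs followed at 99.0 CPM, and ABCs stood lowest at 7.33 ± 2.94 CPM (SD, n = 6; 2.06% of thinned nuclei with a UMI).

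The diacylglycerol lipases, which make 2-AG, were highest in microglia. Dagla (chromosome 19, 10245265 to 10304877, minus strand), the lipase best known for synaptic 2-AG, stood at 89.3, 91.3 and 85.6 CPM in microglia of aplCoA and 82.7, 91.8 and 95.5 CPM in microglia of pplCoA. Astrocytes followed at 52.2 ± 6.79 CPM (SD, n = 6) and glutamatergic neurons at 37.4 ± 3.02 CPM, each step in the same direction in all 6 replicates. Glutamatergic neurons held 39.6, 39.0 and 31.8 CPM in aplCoA and 37.0, 39.9 and 36.9 CPM in pplCoA, and GABAergic neurons 28.8, 33.1 and 24.0 CPM against 28.7, 22.8 and 29.7 CPM. Dagla was lower in GABAergic than in glutamatergic neurons by a log2 difference of -0.58 (SE 0.0682, edgeR adjusted p = 5.82e-05), and it was lowest in MOLs at 2.68 CPM.

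Daglb (chromosome 5, 143464584 to 143505942, plus strand), the other diacylglycerol lipase, is known for its part in microglia and macrophages. It stood at 220, 251 and 224 CPM in microglia of aplCoA and 241, 261 and 247 CPM in microglia of pplCoA. ABCs were second at 43.5 ± 9.92 CPM (SD, n = 6), so that the microglial mean was 5.53 times that of the next class. In thinned nuclei 36.8% of microglia held a Daglb UMI, against 2.44% of MOLs (52.6% and 4.10% before thinning, at median depths of 3182 and 2897 UMIs). Glutamatergic neurons lay at 31.0, 29.1 and 28.9 CPM in aplCoA and 29.1, 27.9 and 25.7 CPM in pplCoA, and GABAergic neurons at 27.0, 25.8 and 24.8 CPM against 22.9, 25.1 and 23.0 CPM, a fitted log2 difference of -0.37 (SE 0.0412, edgeR adjusted p = 4.12e-05). In the microglial nuclei, glutamatergic markers summed to 45.4 to 123 CPM and astrocyte markers to 318 to 376 CPM. Most of the astrocyte sum was Slc1a3, at 319 CPM pooled over replicates. Astrocytes held 17.5 ± 0.938 CPM of Daglb (SD, n = 6). The part of glutamatergic and astrocyte RNA in the microglial levels was not tested.

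Mgll (chromosome 6, 88724412 to 88828360, plus strand) encodes monoacylglycerol lipase, the main enzyme that ends 2-AG signalling. It was highest in astrocytes, at 371, 397 and 348 CPM in aplCoA and 492, 569 and 517 CPM in pplCoA, so that every pplCoA replicate lay above every aplCoA replicate. NFOLs (222 ± 26.7 CPM, SD, n = 6) and microglia (213 ± 11.4 CPM) came next and did not differ in one direction, followed by OPCs (144 ± 11.2 CPM). Astrocytes were 21.1% of nuclei in all classes together, with 8.92% of all UMIs, and held 45.3% of the Mgll UMIs. After thinning, 51.5% of astrocytes and 1.02% of VLMCs held a Mgll UMI (66.2% and 1.75% before, at median depths of 3340 and 3321.5 UMIs).

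Neurons divided over Mgll. GABAergic neurons held 121, 133 and 111 CPM in aplCoA and 125, 118 and 114 CPM in pplCoA. Glutamatergic neurons held 25.6, 22.4 and 31.5 CPM in aplCoA and 34.9, 24.4 and 25.8 CPM in pplCoA. The classes did not overlap, and the fitted log2 difference was 1.98 (SE 0.0928, edgeR adjusted p = 1.88e-07). Along with Cnr1 it was the other gene of the 9 that was higher in GABAergic neurons.

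The further 2-AG hydrolases followed other orders. Abhd6 (chromosome 14, 8002902 to 8056763, plus strand), a membrane enzyme known for breaking down 2-AG at postsynaptic sites, was spread widely. Astrocytes held 88.4, 90.9 and 81.2 CPM in aplCoA and 102, 100 and 110 CPM in pplCoA, and their mean was 1.18 times that of glutamatergic neurons, the next class. Glutamatergic neurons held 78.1, 81.8 and 75.9 CPM in aplCoA and 82.3, 84.0 and 81.4 CPM in pplCoA, and GABAergic neurons 68.3, 76.1 and 67.7 CPM against 70.6, 60.0 and 67.0 CPM (log2 difference -0.40, SE 0.0512, edgeR adjusted p = 0.000109). Microglia (80.5 CPM) could not be placed above or below glutamatergic neurons.

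Abhd12 (chromosome 2, 150832493 to 150904741, minus strand) encodes a hydrolase of 2-AG and of lysophosphatidylserine that is known from microglia. It stood at 865, 1025 and 896 CPM in microglia of aplCoA and 931, 942 and 955 CPM in microglia of pplCoA, 4.62 times the mean of OPCs, the next class (202 ± 19.4 CPM, SD, n = 6). After thinning 79.4% of microglia, 31.3% of OPCs and 13.3% of MOLs held a UMI (87.3%, 52.8% and 16.5% before). Microglia were 6.01% of nuclei with 2.51% of all UMIs, and held 22.1% of the Abhd12 UMIs. In neurons its level was nearly flat, at 80.2, 83.4 and 84.6 CPM in GABAergic nuclei of aplCoA and 71.9, 71.3 and 70.7 CPM in those of pplCoA, and at 79.4, 81.3 and 87.6 CPM in glutamatergic nuclei of aplCoA and 70.9, 70.1 and 71.1 CPM in those of pplCoA. In both neuron classes the aplCoA replicates lay above the pplCoA replicates. Scaled by total UMIs, as here, the median gene was itself higher in aplCoA, by 0.06 in GABAergic and 0.09 in glutamatergic neurons (log2). The share of all genes that separated in this way was not counted, and edgeR called neither domain difference of Abhd12. The fitted difference between the neuron classes was -0.15 (SE 0.0313, edgeR adjusted p = 0.00193), and it turned to 0.01 (adjusted p = 0.743) when libraries were scaled by total UMIs alone, so no direction can be given.

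For anandamide, the gene of synthesis and the gene of breakdown had their highest levels in different classes, while glutamatergic neurons held most UMIs of both (76.3% for Napepld and 89.6% for Faah, against 68.1% of all UMIs). Napepld (chromosome 5, 21662901 to 21701396, minus strand), which encodes NAPE-PLD, was highest in VLMCs, at 80.5, 73.7 and 105 CPM in aplCoA and 91.7, 75.1 and 83.6 CPM in pplCoA. VLMCs held 6.43% of its UMIs, with 1.80% of all UMIs and 4.01% of the nuclei. In these nuclei the 5 VLMC markers summed to 1596 to 1938 CPM and the 5 astrocyte markers to 1785 to 2240 CPM. Pooled over replicates, VLMCs held 1759 CPM of Slc1a3, 232 of Gja1, 14.8 of Aldh1l1, 4.69 of Ntsr2 and 1.99 of Aqp4, where astrocytes held 2385, 232, 98.9, 242 and 318 CPM in the same order. Gja1 was thus as high in VLMCs as in astrocytes, while Ntsr2 and Aqp4 were near 0. Astrocytes themselves held 7.56 ± 0.970 CPM of Napepld (SD, n = 6), and the part of astrocyte RNA in the VLMC level was not tested. MOLs were second with a wide spread, between 11.8 and 71.9 CPM. Of VLMCs, 15.7% held a UMI after thinning, against 0.752% of microglia (24.4% and 1.29% before, at median depths of 3321.5 and 3182 UMIs). Glutamatergic neurons held 28.9, 31.3 and 25.4 CPM in aplCoA and 21.9, 28.1 and 29.1 CPM in pplCoA, above GABAergic neurons at 17.2, 16.9 and 19.1 CPM and 14.4, 16.6 and 14.4 CPM (log2 difference -0.87, SE 0.0782, edgeR adjusted p = 1.03e-05).

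Faah (chromosome 4, 115967145 to 116017926, minus strand), which encodes fatty acid amide hydrolase, was highest in glutamatergic neurons. Its level was 68.7, 69.3 and 65.4 CPM in aplCoA and 78.1, 74.6 and 69.8 CPM in pplCoA. GABAergic neurons held 35.6, 33.9 and 36.0 CPM in aplCoA and 42.5, 27.4 and 27.0 CPM in pplCoA, below every glutamatergic value (log2 difference -1.22, SE 0.0874, edgeR adjusted p = 2.43e-06). Glutamatergic neurons held 89.6% of the Faah UMIs, with 68.1% of all UMIs and 43.0% of the nuclei. Astrocytes, microglia, ABCs and VLMCs lay between 3.09 and 4.65 CPM, and 13.4% of glutamatergic nuclei, 6.88% of GABAergic nuclei and 0.629% of microglia held a UMI after thinning (55.9%, 24.1% and 1.15% before).

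All 9 genes were thus called between GABAergic and glutamatergic neurons (edgeR quasi-likelihood, adjusted p under 0.05), with Cnr1 and Mgll higher in GABAergic neurons and 6 others higher in glutamatergic neurons. The call for Abhd12 was on the glutamatergic side in 18 of 19 alternatives and was lost under total UMIs, and its mean level was 77.0 CPM in GABAergic and 76.7 CPM in glutamatergic neurons. This count stands against a high background: of all genes tested, 38.4% were called higher in GABAergic and 34.8% higher in glutamatergic neurons. The median size of the log2 difference was 0.583 over the 9 genes and 0.316 over all genes tested. The median log2 difference of all genes was 0.03 with TMM scaling and 0.19 with total UMIs, and Abhd12 was the one gene of the 9 whose direction turned between these scalings.

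**Figure D2:**
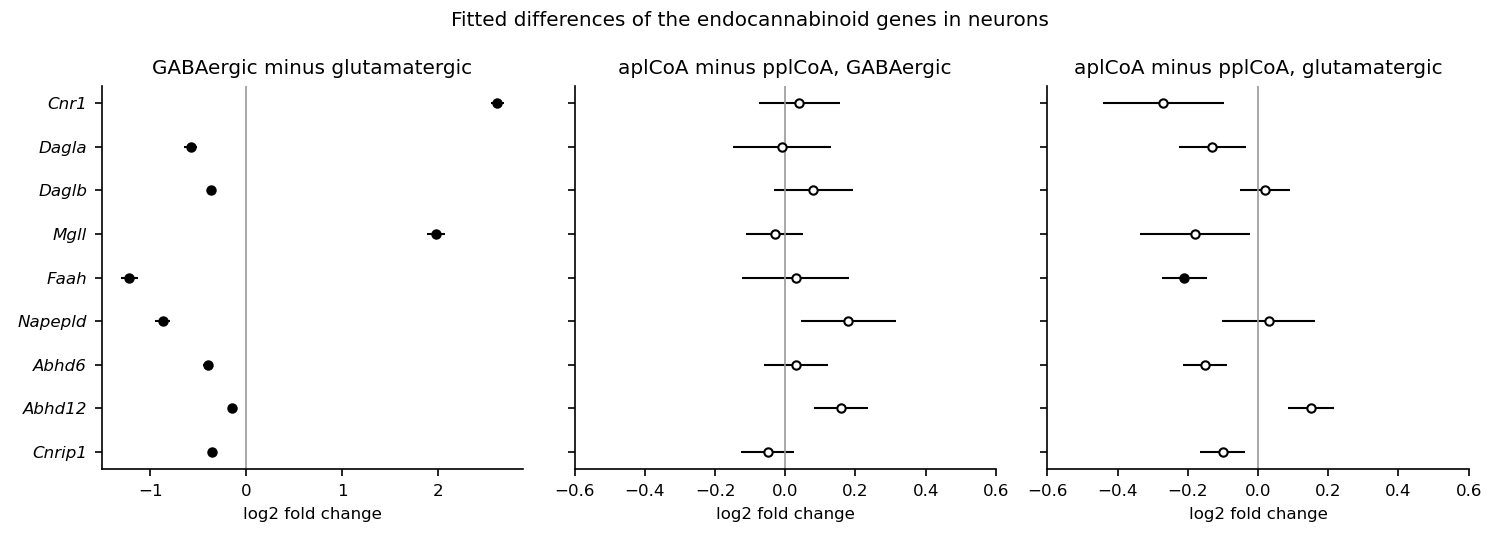
Fitted log2 fold changes of the 9 genes with SE bars, for GABAergic minus glutamatergic neurons (left) and for aplCoA minus pplCoA in GABAergic (middle) and glutamatergic neurons (right). Filled points passed an adjusted p of 0.05 (edgeR): all 9 on the left, where Cnr1 (2.62) and Mgll (1.98) are positive and Abhd12 (-0.15) turns sign under total-UMI scaling, none in the middle, and Faah (-0.21) on the right.

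Among the orders of the 9 genes over the 9 classes there were 72 neighbouring pairs, and 24 of them kept one direction in all 6 replicates (two-sided exact sign-flip permutation test, p = 0.0312 for each, the smallest that 6 replicates allow). The pairs were taken from the order in the same data, and with adjustment over the 72 these p-values became 0.0938. The top class stood above the second in every replicate for each of the 9 genes, by means that ranged from 1.15 times for Cnrip1 to 6.81 times for Cnr1, although at equal depth the step for Cnrip1 held in 5 of 6 replicates, and for Abhd6 microglia became the second class, below astrocytes in 5 of 6.

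Within GABAergic neurons, nuclei were clustered again without the 9 genes, and mean Cnr1 levels ran from 3.46 to 1063 CPM over the clusters shown. The highest was GABAergic cluster 18, called Cck-like from its level of Cck, Sncg, Krt73 and Slc17a8, a list of markers of cholecystokinin interneurons. Its 112 nuclei held 1229, 1283 and 843 CPM of Cnr1 in aplCoA and 1201, 713 and 1108 CPM in pplCoA. The other GABAergic nuclei held 138 ± 19.6 CPM (SD, n = 6), and the log2 ratio was 2.93 ± 0.432 with the Cck-like cluster higher in 6 of 6 replicates (two-sided exact sign-flip permutation test, p = 0.0312, the smallest possible). The cluster was 2.19% of GABAergic nuclei and held 21.9% of their Cnr1 UMIs. It had as few as 6 nuclei in a replicate, under the minimum of 10 set for the 11 clusters that follow.

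Of those 11 GABAergic clusters, cluster 12 stood first. It was led by Itga8, Gulp1 and Cck, took no subtype name from the markers, and held Cnr1 at 956, 972 and 767 CPM in aplCoA and 537, 551 and 701 CPM in pplCoA. Of its 175 nuclei 96.0% held a Cnr1 UMI, with a median of 5 UMIs per nucleus. Clusters 3 and 2, both Vip-like (vasoactive intestinal peptide interneurons), followed at 483 ± 98.6 and 358 ± 52.1 CPM (SD, n = 6).

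The other clusters fell away from these. Cluster 6, which took no name, lay at 127 ± 45.5 CPM, and the Lamp5-like clusters 7 and 1 (neurogliaform-type markers) at 110 ± 27.4 and 103 ± 21.3 CPM. The Sst-like cluster 5 lay at 26.0 ± 12.1 CPM, the Lamp5-like cluster 14 at 23.7 ± 9.30 CPM and the unnamed cluster 9 at 21.3 ± 12.1 CPM. Their means lay under the lowest level of free RNA in a library, 40.0 CPM. The Pvalb-like clusters 4 and 8 (parvalbumin interneuron markers; Pvalb was among the 10 leading genes by fold of cluster 4, while cluster 8 was led by Gm20658, Mctp2 and Vipr2) were lowest at 4.29 ± 2.40 and 3.46 ± 4.41 CPM, under every level of free RNA in the libraries. Of the 10 steps in this order, 4 kept one direction in all replicates: cluster 12 above 3, 2 above 6, 1 above 5, and 9 above 4 (p = 0.0312 each, exact sign-flip permutation test, 0.106 with adjustment over all 17 steps in both neuron classes). These steps, like those among glutamatergic clusters below, were taken from the order in the same data. The 3 clusters between 103 and 127 CPM could not be ordered, nor could the 3 between 21.3 and 26.0 CPM.

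**Figure D3:**
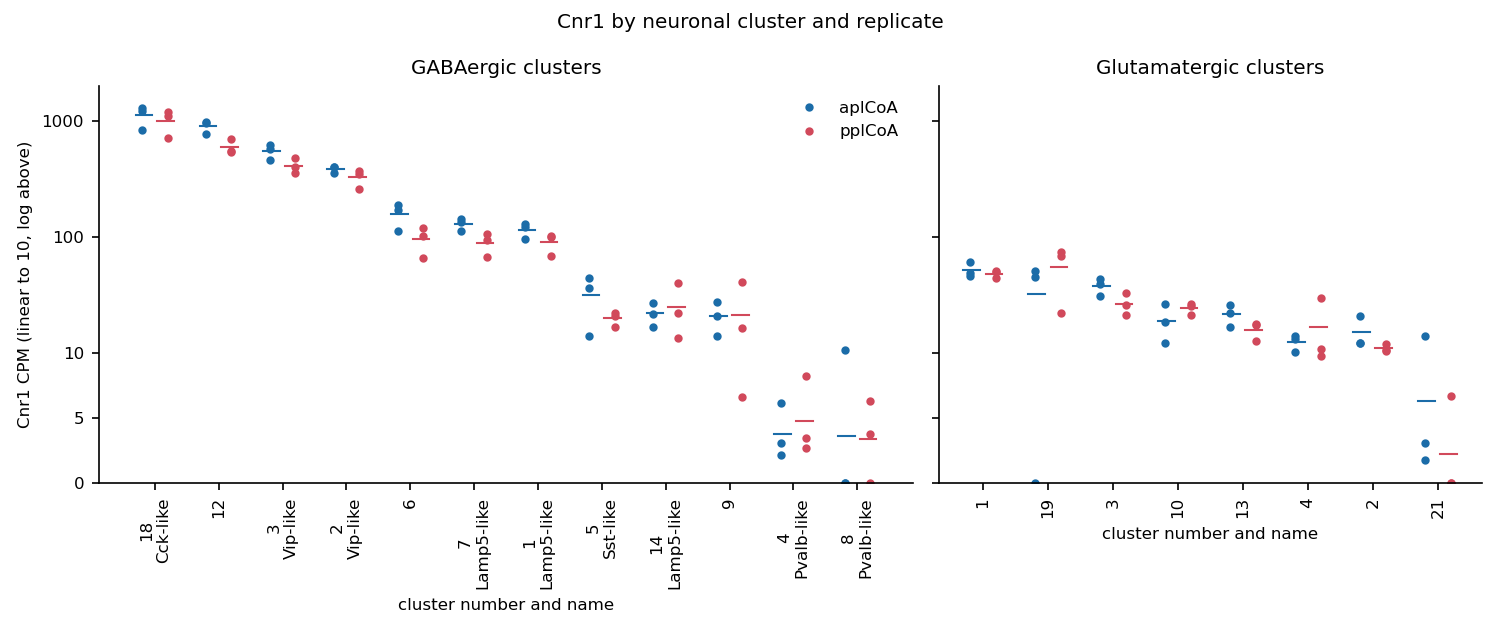
Cnr1 level (CPM, linear up to 10 and logarithmic above) in 12 GABAergic and 8 glutamatergic clusters, with dots for the replicates of each domain. GABAergic levels run from 1063 CPM in the Cck-like cluster to 3.46 CPM in Pvalb-like cluster 8, and glutamatergic levels from 50.4 to 4.28 CPM, with cluster 19 the one of low depth. Unranked glutamatergic cluster 16, whose mean was above those of these 8, is not drawn.

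Among 8 glutamatergic clusters the range was narrower. Cluster 1, with Gm49678 and Gm34667 among its leading genes, stood highest at 50.4 ± 6.03 CPM (SD, n = 6), with a Cnr1 UMI in 44.3% of its nuclei. Cluster 3, led by Ccbe1, Dach2 and Fign, lay at 32.4 ± 8.21 CPM, and the lowest, cluster 21, at 4.28 ± 5.44 CPM. Cluster 19 (43.6 ± 28.3 CPM, 319 nuclei) stood apart in quality. Its nuclei held a median of 3604 UMIs against 12280 in the whole class, and its 10 leading genes by fold included the glial genes Bcan, Acsbg1, Mertk and Fcrls and the GABAergic marker Dlx6os1 but no glutamatergic marker, although the 5 glutamatergic markers summed to 1471 CPM in it and the astrocyte markers to 59.5 CPM. Its place among glutamatergic clusters is therefore not read here. With it, 1 of 7 steps kept its direction in all replicates, cluster 3 above cluster 10 (21.9 ± 5.61 CPM), and without it, an alternative added after the values were seen, so did cluster 1 above cluster 3, which made 2 of 6. None of these 8 clusters reached the level of the Lamp5-like GABAergic clusters 1 and 7. Apart from clusters 1 and 19, their means lay under the lowest level of free RNA in a library, 40.0 CPM. Cluster 16, led by Gm31698, Gm30094 and Grik3, had as few as 2 nuclei in a replicate and was not ranked. It lay at 155 ± 49.1 CPM over 432 nuclei. Its mean was above those of the 8 clusters and of Lamp5-like GABAergic clusters 1 and 7. Etv1 was among its 10 leading genes by fold. The study places neurons marked by Etv1 in the posterior basomedial amygdala. It proposes that neurons marked by Fign, a leading gene of cluster 3, come from the cortex-amygdala transition area. Whether clusters 16 and 3 hold those neurons was not tested.

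The genes whose levels followed Cnr1 most closely over the 11 GABAergic clusters were Gpr27 (Pearson r = 0.989 of log2(CPM + 1)), Pou3f3 (0.976), Sdk2 (0.960), Cd200 (0.958) and Arpc5 (0.954), of 11271 genes compared. Over the 8 glutamatergic clusters they were Gtpbp6 (0.976), Prep (0.975), D630045J12Rik (0.965), Zswim6 (0.948) and Lhx2 (0.937), of 10394 genes, and without cluster 19 Gtpbp6 (0.972) and Prep (0.971) again came first. The 2 sets share no gene. Clusters share libraries and differ in depth, and with so many genes and so few clusters a high r is a description of likeness only.

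Over the 9 classes, among 13829 genes, the nearest to Cnr1 were Gm45904 (r = 0.992), Cntnap4 (0.987) and Mpped1 (0.979). Those nearest to Daglb were Med13l (0.991), Sumf1 (0.986) and Runx1 (0.984), and to Abhd12 they were Gpr34 (0.987), Tlr5 (0.973) and Gng10 (0.972). Faah was followed by Wipf3 (0.988), Nvl (0.977) and Grm7 (0.970), and Cnrip1 by Rnf157 (0.969), Gm11655 (0.942) and Fdx2 (0.926). The nearest to Dagla were Stk40 (0.951), Lasp1 (0.944) and Nckipsd (0.933), to Abhd6 Adrb1 (0.941), Slc25a26 (0.894) and Hivep3 (0.880), to Napepld Adcy5 (0.923), Cenpp (0.910) and Tfdp2 (0.893), and to Mgll Gm26862 (0.884), Pisd (0.877) and Gm26533 (0.874).

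The enzymes varied among neuronal clusters too. Among the ranked clusters Mgll was highest in those called Lamp5-like, at 324 ± 17.0 CPM in cluster 1, 317 ± 31.8 CPM in cluster 14 and 240 ± 45.3 CPM in cluster 7 (SD, n = 6). Pvalb-like cluster 8 followed at 153 ± 31.8 CPM. In Cnr1-rich cluster 12 it was 94.5 CPM. Over all 6 Lamp5-like clusters, 1484 nuclei in all, Mgll was 227 ± 18.9 CPM against 82.5 ± 7.99 CPM in the other GABAergic nuclei, higher in 6 of 6 replicates, and Abhd6 was 97.7 ± 15.8 CPM against 57.5 ± 1.71 CPM, also in 6 of 6. The group also holds clusters 10, 13 and 20, which had too few nuclei in a replicate to be ranked. Its pooled Mgll level lay below that of clusters 1, 14 and 7 each, so it is not shown for every cluster of that name. This grouping was chosen after the values were seen and was not tested.

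Among glutamatergic clusters Mgll ran from 12.3 CPM in cluster 13 to 57.6 CPM in cluster 4. Faah reached 99.6 ± 5.37 CPM in glutamatergic cluster 1, against 21.4 to 40.9 CPM over the GABAergic clusters. Dagla was lowest in GABAergic cluster 12, the cluster of high Cnr1, at 6.71 ± 5.52 CPM, and reached 48.8 ± 11.5 CPM in GABAergic cluster 9 and 43.2 ± 9.56 CPM in glutamatergic cluster 3. The shallow glutamatergic cluster 19 held 132 ± 34.2 CPM of Faah and 59.9 ± 6.30 CPM of Dagla, and leaving it out moved the mean of the glutamatergic class from 71.0 to 70.6 CPM for Faah and from 37.4 to 37.2 CPM for Dagla. Napepld was lowest in Lamp5-like cluster 7 (3.45 ± 3.07 CPM) and highest in glutamatergic clusters 13 (43.0 ± 5.78 CPM) and 3 (40.4 ± 8.25 CPM). Daglb reached 46.2 ± 6.11 CPM in glutamatergic cluster 4, Abhd12 106 ± 18.0 CPM in glutamatergic cluster 2, and Cnrip1 stayed between 79.4 and 155 CPM.

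**Figure D4:**
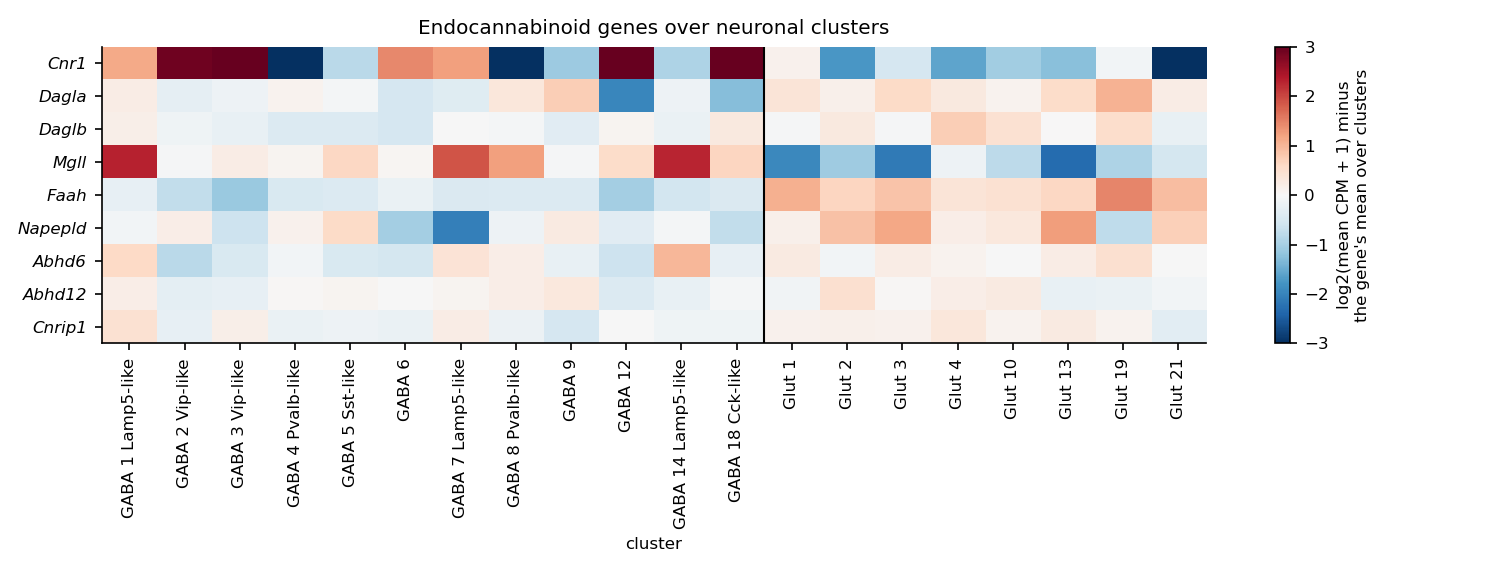
Heatmap of the 9 genes over 20 neuronal clusters, as log2(mean CPM + 1) minus the mean of that gene over the clusters, with colours that stop changing beyond 3 on either side. Cnr1 spans the widest range, from the Cck-like cluster (1063 CPM) to Pvalb-like cluster 8 (3.46 CPM), Mgll peaks in Lamp5-like clusters 1 and 14 (324 and 317 CPM), and Cnrip1 is close to flat.

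Between the domains, few of the 9 genes differed. Of 54 tests over the 9 classes, 2 were called by edgeR's quasi-likelihood test, Mgll in astrocytes and Faah in glutamatergic neurons, both higher in pplCoA, and 8 had an unadjusted p under 0.05. DESeq2 and edgeR's likelihood ratio test each called 2. In astrocytes 1 of 5 tested genes was called, where 0.677% of all genes were, and in glutamatergic neurons 1 of 9, where 20.8% of all genes were. By edgeR's quasi-likelihood test, 2 of 5 in astrocytes had an unadjusted p under 0.05, against 778 of 5023 over all genes. In glutamatergic neurons 2 of 9 did, against 3275 of 9702.

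Mgll in astrocytes fell by 0.52 on the log2 scale in aplCoA relative to pplCoA (SE 0.0842, edgeR adjusted p = 0.0440). The call was kept in 13 of 19 alternatives, and the adjusted p lay between 1.87e-05 and 0.234. It was lost without any 1 of aplCoA replicates 1, 2 and 3 or pplCoA replicates 2 and 3, and with library 1 alone for aplCoA replicate 1, while the size stayed between -0.58 and -0.47. In these nuclei the summed level of astrocyte markers was 3050 to 3499 CPM in aplCoA and 3212 to 3600 CPM in pplCoA, and that of microglial markers 80.0 to 101 CPM and 85.1 to 113 CPM. OPC markers (53.7 to 60.3 CPM and 61.0 to 83.2 CPM) and endothelial markers (3.63 to 4.13 CPM and 4.42 to 5.51 CPM) were higher in pplCoA without overlap. VLMC markers (15.9 to 23.6 CPM and 12.4 to 15.8 CPM) and ABC markers (2.95 to 5.31 CPM and 1.38 to 2.52 CPM) went the other way, also without overlap. The sums of the other marker lists overlapped, and the part of any of them in the difference was not tested. The next member in astrocytes, Abhd6, was -0.28 (SE 0.0872, adjusted p = 0.172), with every pplCoA replicate above every aplCoA replicate.

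Faah in glutamatergic neurons fell by 0.21 on the log2 scale in aplCoA relative to pplCoA (SE 0.0639, edgeR adjusted p = 0.0488), and was called in 5 of 19 alternatives, with adjusted p up to 0.293. It shrank to -0.11 with log-normalized clustering and to -0.13 with total UMIs. Over the 8 described clusters alone the means were 80.0 and 82.1 CPM (exact permutation test, p = 0.5), and with equal weight for each of them the means were 85.3 CPM in aplCoA and 85.6 CPM in pplCoA (exact permutation test, p = 1.00), against 67.8 and 74.2 CPM over all nuclei (p = 0.1, exact permutation test), and without cluster 19 the equal-weight difference turned to 1.49 CPM (aplCoA minus pplCoA). In these nuclei the summed level of glutamatergic markers was 995 to 1099 CPM in aplCoA and 1125 to 1235 CPM in pplCoA, without overlap, and that of VLMC markers 4.21 to 6.69 CPM and 8.31 to 20.5 CPM, also without overlap. Newly formed oligodendrocyte markers went the other way, at 10.2 to 12.7 CPM and 7.27 to 9.75 CPM, and the sums of the other marker lists overlapped. Their part in the Faah difference was not tested. The other 8 genes were not called in glutamatergic neurons. Cnr1 was -0.27 (SE 0.172, adjusted p = 0.322), Abhd6 -0.15 (SE 0.0627, adjusted p = 0.124), and Abhd12 0.15 (SE 0.0650, adjusted p = 0.156), the last called at 0.23 (adjusted p = 0.0322) when libraries were scaled by total UMIs.

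In GABAergic neurons 0 of 9 were called by edgeR, DESeq2 or the likelihood ratio test and 0 had an unadjusted p under 0.05, where 10.0% of all genes were called. Cnr1 was 0.04 (SE 0.115, adjusted p = 0.903), Abhd12 0.16 (SE 0.0770, adjusted p = 0.255) and Napepld 0.18 (SE 0.135, adjusted p = 0.483). In the other 6 classes 0 of 31 tests were called by any of the 3 tools, and 4 had an unadjusted p under 0.05: Mgll (1.16) and Dagla (-1.15) in ABCs, Cnrip1 in MOLs (0.75) and Napepld in NFOLs (0.98). A gene was tested when at least 10% of nuclei in either domain held a UMI. A gene near that share can enter through its higher domain alone. Before thinning, a mean of 8.18% (Mgll) and 11.5% (Dagla) of ABCs, 12.7% of MOLs (Cnrip1) and 10.9% of NFOLs (Napepld) held a UMI. The part of this filter in the 4 differences was not tested. Of all genes, 0% were called in ABCs, 1.53% in MOLs, 0% in NFOLs, 6.41% in OPCs, 0% in microglia and 0.0175% in VLMCs. An edgeR unadjusted p under 0.05 was found for 407 of 5989 genes in ABCs, 598 of 4451 in MOLs and 612 of 7334 in NFOLs. Of the tested genes of the 9, it was found for 2 of 5 in ABCs, 1 of 4 in MOLs and 1 of 7 in NFOLs. In GABAergic neurons 1957 of 8763 genes had it.

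The domain difference itself was compared between the neuron classes. None of the 9 genes, 0 of 9, passed edgeR's interaction test, DESeq2's or the likelihood ratio test, where 4.92% of all genes passed the first. By the first, 1902 of 10028 genes had an unadjusted p under 0.05, and of the 9 genes 1 did. This was Cnr1 at 0.26 (SE 0.0940, adjusted p = 0.159), which passed with library 2 alone for aplCoA replicate 1 (0.38) and without pplCoA replicate 1 (0.34). Faah passed without pplCoA replicate 1 (0.49).

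Cnr1 in GABAergic neurons was also compared between domains over the 11 ranked clusters alone, an alternative added after the values were seen. These leave out the other 14 of the 25 GABAergic clusters, the Cck-like cluster among them. Pooled over all GABAergic nuclei, the means were 172 CPM in aplCoA and 162 CPM in pplCoA (two-sided exact permutation test, p = 0.7). Pooled over the nuclei of the 11 clusters they were 155 ± 16.1 and 134 ± 21.9 CPM (SD, n = 3 each; exact permutation test, p = 0.3). With equal weight for each of the 11 clusters they were 211 ± 22.5 and 153 ± 16.8 CPM (exact permutation test, p = 0.1, the lowest that 3 against 3 allows), and the aplCoA mean was the higher in 8 of the 11. The largest gap was in cluster 12, at 898 ± 114 CPM in aplCoA and 596 ± 90.6 CPM in pplCoA, with no overlap between the replicates. For glutamatergic neurons, the 8 described clusters gave 28.3 and 28.4 CPM pooled (exact permutation test, p = 0.9), 24.7 and 25.2 CPM with equal weights (p = 1.00), and 23.6 and 20.9 CPM with equal weights and without cluster 19 (p = 0.1). The comparison was made for all 9 genes. In GABAergic neurons Napepld was 17.7 CPM in aplCoA and 15.1 CPM in pplCoA over all nuclei. It was 19.1 and 14.4 CPM pooled over the 11 clusters, and 18.4 and 12.9 CPM with equal weights (exact permutation test, p = 0.1 for each of the 3). Apart from Cnr1 and Napepld, no gene of the 9 reached p = 0.1 with equal weights in GABAergic neurons (exact permutation test).

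Which clusters supplied the nuclei differed between the samples. Of the 28 glutamatergic clusters, 20 had under 10 nuclei in at least 1 replicate and 14 had 0 in at least 1, and in 12 the numbers of nuclei did not overlap between the domains. The 8 described clusters held 42.7% to 63.7% of glutamatergic nuclei in aplCoA replicates and 36.5% to 59.3% in pplCoA replicates. Of the 25 GABAergic clusters, 14 had under 10 nuclei in at least 1 replicate and 6 had 0 in at least 1, and in 2 the numbers did not overlap. These numbers are counts and not shares of a class, and libraries held 4028 to 9705 kept nuclei. With few replicates some clusters can fail to overlap by chance, and the overlap was not tested. The 11 ranked clusters held 68.5% to 71.4% of GABAergic nuclei in aplCoA replicates and 71.9% to 79.5% in pplCoA replicates, without overlap. In sums over a whole neuron class, a change of level within nuclei and a change in which clusters were sampled cannot be told apart.

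A wider list of 34 genes around the pathway held 8 upstream receptors and Gq-pathway genes that trigger 2-AG synthesis, 12 partners and effectors of the CB1 receptor, and 14 related lipid receptors, enzymes and carriers. In glutamatergic neurons 10 of the 26 tested were called between domains, against 20.8% of all genes, and the median size of the log2 difference was 0.191 for the list and 0.138 for all genes. Higher in aplCoA were Plcb4 (1.87, SE 0.331), Fabp5 (0.78), Chrm3 (0.63, SE 0.142), Gnai2 (0.51), Fabp3 (0.48) and Arrb1 (0.44, SE 0.0757). These are a phospholipase C, a fatty acid binding protein, a muscarinic receptor, an inhibitory G protein subunit, a further fatty acid binding protein and an arrestin, and their edgeR adjusted p-values were 0.00825, 0.00989, 0.0176, 0.0352, 0.0278 and 0.00757. Lower in aplCoA were Pparg (-0.83), a nuclear receptor for lipids, Pla2g4e (-0.62), an enzyme that makes the anandamide precursor, and the potassium channel subunits Kcnj6 (-0.42) and Kcnj9 (-0.40), at adjusted p = 0.0225, 0.0465, 0.0126 and 0.0212.

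In sums over the nuclei of the 8 described glutamatergic clusters, an alternative added after the values were seen, the difference in CPM was smaller in size for all 10 genes, and for Gnai2 it turned to -0.380 CPM (aplCoA minus pplCoA). Plcb4 was 39.2 CPM in aplCoA and 9.95 CPM in pplCoA over all glutamatergic nuclei, 12.9 and 9.29 CPM over the nuclei of the 8 clusters, and 23.7 and 22.8 CPM with equal weight for each. Chrm3 was 631 and 387 CPM over all nuclei, 501 and 486 CPM over the 8 clusters, and in the other direction, 453 and 491 CPM, with equal weights. Gnai2 and Pla2g4e also turned direction with equal weights, to -1.16 and 5.49 CPM (aplCoA minus pplCoA). For Fabp3 the difference was 3.71 CPM over all nuclei and 3.79 CPM with equal weights, and its replicates did not overlap under either. Equal weights give the shallow cluster 19 as much part as any other cluster. GABAergic markers summed to 69.5 CPM in it, against 11.3 CPM in the glutamatergic class. The wider list was not compared without it.

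In GABAergic neurons 3 of 25 genes of the wider list were called between domains, near the 10.0% of all genes: Gna11 (0.54, SE 0.147, adjusted p = 0.0318) and Fabp3 (0.53, SE 0.136, adjusted p = 0.0249) higher in aplCoA and Chrm3 lower (-0.25, SE 0.0680, adjusted p = 0.0312). In these nuclei GABAergic markers summed to 1282 to 1336 CPM in aplCoA and 1130 to 1163 CPM in pplCoA, and macrophage markers to 2.09 to 4.99 CPM and 1.84 to 2.03 CPM. Neither overlapped, and their part in these differences was not tested. Over all classes the list had 15 calls of 149 tests by edgeR, the remaining 2 being 1 of 12 in MOLs, where 1.53% of all genes were called, and 1 of 18 in OPCs, where 6.41% were. DESeq2 called 12 over all classes, of which glutamatergic neurons had 11, GABAergic neurons 1 and MOLs and OPCs 0, and the likelihood ratio test called 16. Between the neuron classes 19 of 26 were called, 11 higher in GABAergic and 8 higher in glutamatergic neurons, a share close to that of all genes (38.4% and 34.8% in the same directions). Plcb4 (2.80, SE 0.383, adjusted p = 0.000162), Fabp5 (1.40) and Gnai2 (0.79) led in GABAergic neurons, and Kcnj6 (-1.18) and Kcnj9 (-1.05) were among those highest in glutamatergic neurons.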

How the data were processed

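Male mouse tissue of 2 domains of the posterolateral cortical amygdala was profiled by droplet single-nucleus RNA sequencing (10X 3' chemistry). The authors aligned reads with Cell Ranger (5.0.0, per the submitters' processing notes) to mm10, counting introns as well as exons. The deposited count tables hold UMIs per gene and barcode of a library, unfiltered and not normalized.

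A floor of 1000 genes left 52201 barcodes. An upper limit on UMIs, the library's median plus 5 scaled median absolute deviations, left 51538, and upper limits on the mitochondrial and the ribosomal percentage, the upper quartile plus 5 interquartile ranges, left 50493. Nuclei with the highest Scrublet scores, at 1% per 1000 nuclei, were removed as doublets, which left 46376 (4028 to 9705 per library). The study's empty-droplet test, doublet caller and removal of low-quality clusters were not repeated. Pearson residuals (theta 100) of 5000 variable genes, without the 9 genes and the wider list, entered a principal component analysis (50 components), and Leiden clustering used 15 neighbours at resolution 1.0. Clusters took a class name from marker genes, and a cluster was described with at least 100 nuclei and 10 in every replicate. These names were rebuilt here and can differ from the study's.

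UMIs were summed per class and replicate. Genes with a UMI in at least 10% of a class's nuclei in a domain were scaled by TMM and compared with edgeR 4.0.16 (quasi-likelihood, Benjamini-Hochberg over all genes tested, called at adjusted p under 0.05), with the replicate as a block between neuron classes. DESeq2 1.42.0, the likelihood ratio test, other scalings, no filter, other clusterings, single libraries, left-out replicates and a replicate block were alternatives. The fitting was tested on simulated data. Single values were compared by exact permutation over replicates, and shares of nuclei after thinning to 2000 UMIs. Intervals and SDs over 3 or 6 pools limit precision. Python 3.11.15 with scanpy 1.11.5 and R 4.3.3 were used. Gene positions are from an annotation of GRCm38, the assembly that mm10 names.

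The 9 genes were named in every class. Of the wider list, the text names genes called between domains in glutamatergic or GABAergic neurons and the 3 highest on each side between these classes. For likeness it names the 5 genes nearest to Cnr1 over the clusters of each neuron class and the 3 nearest to each gene over classes, among genes of at least 10 CPM in 1 of them. Not every gene that these rules name is reported here. The genes, lists and tests were chosen with earlier results of these data known.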

Additional observations from a re-analysis of the deposited data

Results flagged for a closer look

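For 3 genes of the wider list the difference between domains itself differed between GABAergic and glutamatergic neurons (edgeR interaction test, 3 of 26 called; 4.92% of all genes were). None of the 9 endocannabinoid genes was among them.

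Chrm3, a muscarinic receptor gene, had a domain difference (aplCoA minus pplCoA) that was lower in GABAergic than in glutamatergic neurons (interaction -0.91 log2, SE 0.121, adjusted p = 0.00499). In glutamatergic neurons its level was 574, 678 and 640 CPM in aplCoA and 472, 379 and 309 CPM in pplCoA, with no overlap. In GABAergic neurons it was 464, 474 and 506 CPM in aplCoA and 574, 532 and 548 CPM in pplCoA, with no overlap and in the opposite direction.

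Plcb4, a phospholipase C gene, gave -1.89 (SE 0.286, adjusted p = 0.00852). Glutamatergic levels were 42.9, 34.6 and 40.2 CPM in aplCoA and 16.9, 7.15 and 5.78 CPM in pplCoA, and GABAergic levels 153, 173 and 166 CPM against 158, 148 and 143 CPM, which overlapped.

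Arrb1, an arrestin gene, gave -0.62 (SE 0.118, adjusted p = 0.0200). Glutamatergic levels were 33.3, 32.3 and 34.5 CPM in aplCoA and 24.8, 23.4 and 21.3 CPM in pplCoA, and GABAergic levels were 39.0, 36.0 and 45.2 CPM against 39.1, 45.0 and 46.5 CPM, which overlapped.

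The domain differences in glutamatergic neurons were smaller over the 8 described glutamatergic clusters, alternatives chosen after seeing the data. In sums over these clusters Chrm3 was 501 CPM in aplCoA and 486 CPM in pplCoA, Plcb4 12.9 and 9.29 CPM, and Arrb1 26.1 and 23.5 CPM. The replicates in these sums did not overlap for Plcb4 and Arrb1 (exact permutation test, p = 0.1 for each). With equal weight for each cluster Chrm3 was 453 CPM in aplCoA and 491 CPM in pplCoA, which turned its direction, Plcb4 23.7 and 22.8 CPM, and Arrb1 30.0 and 26.1 CPM, and the replicates of the domains overlapped for each. These equal weights include the shallow cluster 19, and the 3 genes were not compared without it. In GABAergic neurons, with equal weight for each of the 11 ranked clusters, Chrm3 was 454 CPM in aplCoA and 501 CPM in pplCoA, with replicates of 435 to 472 CPM and 461 to 538 CPM, which overlapped. In sums over these 11 clusters it was 437 ± 19.1 CPM in aplCoA and 534 ± 8.79 CPM in pplCoA (SD, n = 3 each), without overlap (exact permutation test, p = 0.1). In the sums over the 8 glutamatergic clusters, the SDs of Chrm3 were 35.6 CPM in aplCoA and 23.9 CPM in pplCoA. The replicates overlapped (exact permutation test, p = 0.6), so no direction can be given there for glutamatergic neurons. With equal weights Chrm3 was lower in aplCoA in both classes. Of the 28 glutamatergic clusters 14 had 0 nuclei in at least 1 replicate, and a change within nuclei and a change in which clusters were sampled cannot be told apart. The interaction itself was not tested over these clusters.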

How the results depend on the processing

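Domain calls for the 9 genes were few and depended on the processing. Their number, 2 as reported, was 0 with library 1 alone for aplCoA replicate 1, 1 with library 2 alone, with doublets kept, with log-normalized clustering, with no filter other than 1 count and with only the gene floor, and 0 to 1 when a replicate was left out, with 1 only without pplCoA replicate 1. For the wider list, 15 calls became 8 with library 1 alone, 9 with library 2 alone and 3 to 15 without a replicate (3 without pplCoA replicate 2, 6 without aplCoA replicate 1 or 2, 7 without pplCoA replicate 3). Interaction calls, 0 of 9, became 1 with library 2 alone and 0 to 2 without a replicate. For Cnr1 over glutamatergic clusters, 1 step of 7 in one direction became 2 with doublets kept, with only the gene floor or without the shallow cluster 19 (then of 6), 0 after thinning and 1 to 2 without a replicate. The log2 ratio of the Cck-like cluster was 2.82 to 3.06 without a replicate, at p = 0.0625 by the exact permutation test, the smallest that 5 replicates allow. For Abhd12, the GABAergic minus glutamatergic difference of -0.15 turned to 0.01 under total UMIs. With equal cluster weights and without the shallow cluster, both chosen after seeing the data, the aplCoA minus pplCoA difference in glutamatergic neurons turned to 2.68 CPM for Cnr1 and 1.49 CPM for Faah. With equal weights for the 8 described clusters, Chrm3 (-37.6 CPM), Gnai2 (-1.16 CPM) and Pla2g4e (5.49 CPM) turned direction in glutamatergic neurons, as did Gnai2 (-0.380 CPM) in sums over those clusters. The shallow cluster 19 is among the 8, and these genes were not compared without it. All 9 genes were called between neuron classes in every alternative but that one for Abhd12.

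With the replicate number as a replicate block, 1 of the 9 genes was called between domains. The labels do not say that a number marks a shared batch, and deviations from the domain means of same-numbered replicates correlated at 0.0973, -0.0674 and 0.128 in glutamatergic and 0.0147, -0.156 and -0.0106 in GABAergic neurons, so the numbers were not taken as pairs. Without the block of pools, 9 of 9 genes remained called between neuron classes and 0 of 9 in the interaction.

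Over all genes, the calls between domains were 2016 in glutamatergic neurons (822 to 2421 without a replicate, 3409 with no filter), 877 in GABAergic neurons (183 with library 1 alone, 300 to 873 without a replicate, 1493 with no filter) and 34 in astrocytes (0 to 265 without a replicate, 232 by the likelihood ratio test, 195 by DESeq2, 226 with the block, 728 with no filter, 2 with library 1 alone). In MOLs they were 68 (0 to 126 without a replicate, with 0 without pplCoA replicate 2, 6 with library 1 alone, 254 with the block, 153 by the likelihood ratio test, 9 with doublets kept) and in OPCs 397 (85 to 529 without a replicate, with 85 without aplCoA replicate 1, 87 with library 1 alone, 187 with library 2 alone, 703 with no filter). Interaction calls were 493 (90 to 1104 without a replicate, 208 without the block, 939 by the likelihood ratio test, 1304 with no filter, 275 with doublets kept, 295 log-normalized, 300 with only the gene floor). Several neuronal levels, such as Cnr1 in glutamatergic neurons, also lay under that of free RNA, and NFOLs and ABCs had the fewest nuclei, which limits what could be detected there.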
